A study of Mus musculus with 71 samples.

Results

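H3K27me3 peaks of wild-type (WT) and H1-TKO mouse embryonic stem cells (mESCs) were compared, and the peaks described here lay at promoters and were listed in H1-TKO mESCs only. In H1-TKO mESCs, CRISPR/Cas9 disrupted H1c, H1d and H1e, genes of the linker histone, with a guide sequence that all of them share. Both genotypes were grown on gelatin with serum and LIF. Edited lines came from single-cell clones, so the H1-TKO genotype here is that of a clone and cannot be told apart from other changes in that clone. From H3K27me3 ChIP-seq 1 peak list per genotype was used (replicate 1), and poly(A) RNA-seq gave 2 libraries per genotype. The peaks were chosen by their presence in the lists: a row of the H1-TKO list with its centre within 1 kb of the start of a protein-coding transcript and no row of the WT list sharing 1 bp with it. Of the 6262 peaks in the H1-TKO list 632 met this rule, and they lay at 612 of the 22372 protein-coding genes of GENCODE M1 (mm9, NCBIM37). Being listed in H1-TKO mESCs only is therefore how they were selected and is not a result.

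H3K27me3 is the trimethylation of lysine 27 of histone H3, written by Polycomb repressive complex 2 (PRC2), and in mESCs it is best known at CpG-rich promoters of silent developmental genes. Linker histone H1 binds the nucleosome where DNA enters and leaves it and promotes the folding of chromatin. A peak list says where a peak caller (MACS) found more reads than in the background. Its score is the log10 of the p-value multiplied by minus 10, so a region just under the limit in WT mESCs appears as unlisted, not as free of the mark. The lowest score was 50.01 in the WT list and 50 in the H1-TKO list. Replicate 2 of the ChIP-seq was not analysed here. Each genotype therefore had 1 list, no peak has a replicate check, and the interval beside a share reflects counting error alone.

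The sequences under the highest-scoring peaks show how far these regions differed in CpG content. Windows of 200 bases near the centres of 4 of the 5 peaks with the highest scores are printed 5′ to 3′ on the plus strand of mm9, in lower case with each CpG, the dinucleotide that marks Polycomb-type promoters, in capitals. Celsr1, which had the second-highest score, has no window outside annotated UTRs and is not printed.
Speg, chr1:75372050-75372249, in an exon of a striated-muscle kinase gene: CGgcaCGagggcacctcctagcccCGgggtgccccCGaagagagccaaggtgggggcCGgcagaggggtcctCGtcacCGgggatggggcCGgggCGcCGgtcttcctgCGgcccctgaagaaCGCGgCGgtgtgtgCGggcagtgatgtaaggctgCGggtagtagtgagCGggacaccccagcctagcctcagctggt
Dlgap4, chr2:156439791-156439990, in an intron of a postsynaptic scaffold gene: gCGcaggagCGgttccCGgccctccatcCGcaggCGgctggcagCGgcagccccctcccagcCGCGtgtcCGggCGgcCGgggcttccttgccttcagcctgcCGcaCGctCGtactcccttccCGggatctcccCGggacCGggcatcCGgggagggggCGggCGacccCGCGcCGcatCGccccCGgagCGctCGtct
Efemp2, chr19:5475457-5475656, mostly intronic, in a gene of an elastic-fibre protein: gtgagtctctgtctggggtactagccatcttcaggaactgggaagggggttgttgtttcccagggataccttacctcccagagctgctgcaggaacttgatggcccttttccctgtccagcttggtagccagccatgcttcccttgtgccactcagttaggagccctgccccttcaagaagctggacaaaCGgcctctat
Tmem63a, chr1:182872821-182873020, in an intron of an ion channel gene: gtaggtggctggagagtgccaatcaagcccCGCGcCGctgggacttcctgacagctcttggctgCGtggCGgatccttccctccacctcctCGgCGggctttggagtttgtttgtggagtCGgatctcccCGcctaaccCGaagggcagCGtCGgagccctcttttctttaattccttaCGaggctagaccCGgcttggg
The Dlgap4 window held 27 CpGs and was 78.0% G and C, and the Speg window held 17. The Tmem63a window held 14. The Efemp2 window held 1 CpG in its 200 bases, although its peak had a score of 195.88.

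Scores of the 632 peaks were low as a group. They ran from 50.06 to 258.15 with a median of 63.5, and 261 peaks (41.3%) scored under 60. The 1811 H1-TKO promoter peaks that overlapped a WT peak, called shared below, had a median score of 106, and the 886 promoter peaks listed in WT only had a median of 66.2. Only 72 of the 632 reached a score of 100 and 14 reached 150. Widths followed the same order, with medians of 393 bp for the H1-TKO-only, 432 bp for the WT-only and 782 bp for the shared promoter peaks. The plot of cumulative scores shows that the curves of both kinds of unshared peak lay close together and far to the left of the shared peaks.

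**Figure D1:**
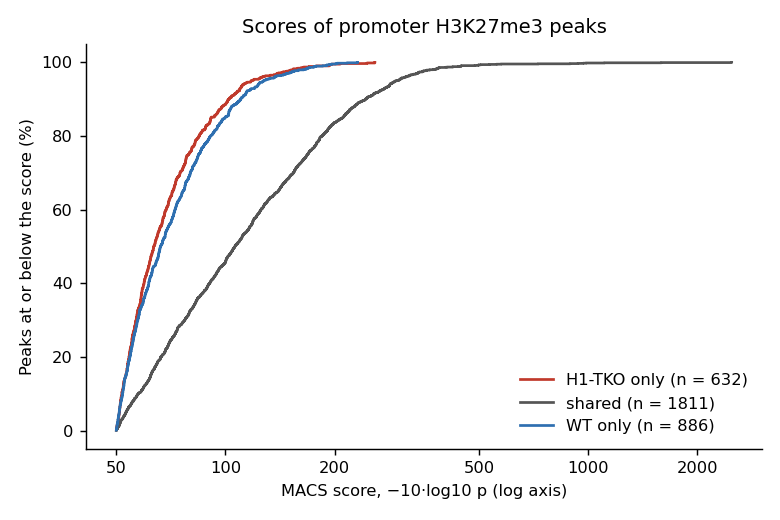
Cumulative share of promoter H3K27me3 peaks (y axis, percent) at or below each MACS score (x axis, log scale) for peaks listed in H1-TKO only, shared peaks (by their H1-TKO score) and peaks listed in WT only. Median scores were 63.5, 106 and 66.2.

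The share of H1-TKO promoter peaks with no WT peak was lower at high scores. It was 52.9% of the 276 peaks with scores from 50 to 55 (95% Clopper-Pearson interval 46.8 to 58.9) and 55.3% of the 208 from 55 to 60 (48.3 to 62.2), and fell in each class from there, with 25.5% of the 322 peaks from 80 to 100 (20.8 to 30.6), and 2.42% of the 579 peaks at 150 and above (1.33 to 4.02). WT promoter peaks gave the mirror image. Of these, 67.0% of 288 peaks from 50 to 55 (61.3 to 72.4), 34.99% of 383 peaks from 80 to 100 (30.2 to 40.0) and 3.87% of 671 peaks at 150 and above (2.55 to 5.63) had no H1-TKO peak. In each of the 7 score classes the WT share was the higher. Over all scores, 25.9% of the 2443 H1-TKO promoter peaks and 33.5% of the 2642 WT promoter peaks were listed in 1 genotype only, which is 0.713 H1-TKO-only peaks for each WT-only peak. No test was made between the lists because each genotype has 1.

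The peaks with the highest scores lay at genes of diverse function. Speg led with a peak of 1665 bp (chr1:75371318-75372982) and a score of 258.15, at 11293 bp from the nearest WT peak. At Celsr1, which encodes an atypical cadherin of planar cell polarity, the peak (chr15:85863384-85864191) scored 245.62 and the nearest WT peak was 151257 bp away. The Dlgap4 peak scored 207.12 and stood 137468 bp from a WT peak. Tmem63a and Mex3d, an RNA-binding protein gene, differed from these. Their peaks scored 193.60 and 193.31 but lay 23 bp and 67 bp from a WT peak. Ttll8, a gene of the tubulin tyrosine ligase-like family, and Hhat, whose product attaches palmitate to Hedgehog proteins, completed the leading 8 with scores of 177.71 and 169.93, both from peaks upstream of the start. Dysf, the muscle membrane repair gene dysferlin, and Rundc3b had the most peaks, with 3 each.

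Distance to the nearest WT peak split the 632 peaks into groups (the plot of distances). For 231 of them (36.6%, interval 32.8 to 40.4) a WT peak lay within 1 kb, and for 94 within 200 bp. For 338 (53.5%, 49.5 to 57.4) no WT peak lay within 10 kb, and for 188 none within 100 kb, which leaves 63 (9.97%) between 1 and 10 kb. Among the 231 close peaks, the neighbouring WT peak was itself overlapped by another H1-TKO peak in 131 cases (56.7%), and in the other 100 it was listed in WT only. The close peaks had a median score of 64.4 and the 338 distant ones a median of 63.0. Of the 612 genes, 432 (70.6%) had no WT peak centred within 1 kb of any of their starts, and 311 (50.8%) had none in the gene or 1 kb around it.

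At its limits the rule separated peaks that were close in place or score. The Cftr peak (chr6:18119963-18120173, score 65.71) touched a WT peak of score 69.78 without sharing a base, and the Il15ra peak (score 88.46) lay 1 bp from one of score 78.12. On the other side, an H1-TKO peak at Cnksr2 on chromosome X (score 122.34) overlapped a WT peak of score 66.39 by 1 bp and a peak at Lbhd2 on chromosome 12 (score 55.09) overlapped one by 7 bp, and both counted as shared. The peak at Pdpn lay 999 bp from a start, and those at Megf11 and Zfp536 that lay at 1001 bp were left out. The lowest score was 50.06, at Tmem169 and Pecr. Among peaks with a score of at least 60, the farthest from any WT peak was that at Taf7l, a gene of the germ-cell form of a TFIID subunit, on chromosome X (score 65.18, 2629444 bp). The others were a pair of peaks at Luzp2 on chromosome 7 (85.82 and 63.64, at 2550965 and 2550565 bp) and 1 at Sorcs1, a sorting receptor gene, on chromosome 19 (103.89, 2161588 bp).

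Chromosome 1 held 44 of the 632 peaks (6.96%, interval 5.10 to 9.23). The same share was 8.45% of the shared promoter peaks (7.21 to 9.83) and 4.74% of the WT-only promoter peaks (3.44 to 6.35), and 5.53% of protein-coding genes lie on this chromosome. Outside promoters the share of H1-TKO-only peaks on chromosome 1 was 13.5% of 1716. Chromosome 7 held the most, 53 peaks (8.39%), followed by chromosome 2 with 51 and chromosome 4 with 50. Chromosome X had few promoter peaks of any kind. Of its 26 H1-TKO promoter peaks, 17 were listed in H1-TKO only (65.4%, interval 44.3 to 82.8), against 25.4% on the autosomes (23.7 to 27.2). In the WT list, 15 of 24 promoter peaks on X were listed in WT only (62.5%, 40.6 to 81.2) against 33.3% on the autosomes (31.5 to 35.1). The 17 peaks on X had a median score of 58.9 and a highest score of 90.34, at Chst7, the 9 shared peaks a median of 56.9 and the 15 listed in WT only a median of 71.5. The 17 included Pou3f4 (59.7), a neural POU factor gene, and Fgf16 (52.29).

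Sequence was not used to choose the peaks. In 500 bases around the centre, the window met the usual limits of a CpG island (at least 50% G and C, and an observed to expected CpG ratio of at least 0.6) at 221 of 632 peaks (34.97%, interval 31.2 to 38.8). WT-only promoter peaks gave 32.5% (29.4 to 35.7) and shared promoter peaks 50.5% (48.1 to 52.8). The median number of CpGs was 18 at H1-TKO-only, 17 at WT-only and 27 at shared peaks. The same order held at the transcription start nearest to each peak, where 64.4% (60.5 to 68.1), 63.1% (59.8 to 66.3) and 77.5% (75.5 to 79.4) met the limits. At the outermost start of all 22372 protein-coding genes, 48.1% (47.4 to 48.8) met them. The intervals of H1-TKO-only and WT-only peaks overlapped on both measures. The intervals also overlapped between close and distant peaks, with 35.9% (29.7 to 42.5) of those within 1 kb of a WT peak and 33.7% (28.7 to 39.0) of those over 10 kb from one. By position, 204 of the 632 centres (32.3%, 28.6 to 36.1) lay upstream of the start, against 25.8% (23.8 to 27.9) of shared and 32.4% (29.3 to 35.6) of WT-only promoter peaks. An intron of a protein-coding gene held 305 centres (48.3%), a UTR 72, and 132 lay outside protein-coding genes.

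Among the 612 genes, 113 (18.5%) fell in 1 of 11 lists of gene families, against 16.9% of all protein-coding genes. Signalling ligands and receptors gave 25 genes, 4.08% of the 612 against 1.09% of all protein-coding genes, 5.04% of the genes of shared promoter peaks and 3.29% of the genes of WT-only promoter peaks. Epha8, an ephrin receptor (score 153.82), Igf2, the imprinted growth factor (138.62), and Tgfbr2, a TGF-β receptor (136.11), had its highest scores, and a WT peak lay within 130 bp of each. Neuronal channels and receptors gave 26 genes (4.25% against 1.497%, with 6.85% for shared and 4.23% for WT-only peaks), among them the synaptic adhesion gene Nlgn2 (110.73). Developmental transcription factors gave 20 (3.27% against 1.399%, with 3.98% for shared and 3.88% for WT-only peaks), among them Hoxd1 (119.33), Pax8 (109.42) and Runx2 (97.73). Adhesion and matrix genes also gave 20 (3.27% against 1.17%, with 3.17% for shared and 3.29% for WT-only peaks), with Efemp2 (195.88) and the collagen genes Col4a3 and Col4a4, which are transcribed in opposite directions and share 2 peaks, the higher of score 123.45. Sensory receptors gave 4 of 1503 genes (0.654% of the 612 against 6.72% of all protein-coding genes), among them Olfr374 and Olfr95. Polycomb subunit genes gave 3 (0.490% against 0.192%, with 0.124% for shared and 0.588% for WT-only peaks). They were Kdm2b, Cbx8 and Pcgf5, with scores of 68.50, 57.77 and 50.55. The list of germline genes gave 4 (0.654% against 0.930%), with Syce1 and Catsperz beside Taf7l, and that of ribosome, proteasome and respiratory chain genes gave 4 entries (0.654% against 1.72%), with Psmb9, which has 2 entries in the annotation, and Eif1b. Numbered Zfp genes gave 7 (1.14% against 1.81%), with Zfp536, Zfp385b and Zfp36l3 at the highest scores. The 28 pluripotency genes and 67 replication-dependent histone genes, 0.125% and 0.299% of all protein-coding genes, gave none, and lists this small do not separate 0 from the background.

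RNA-seq was not used to choose the genes. The 4 libraries held 6951619 to 10538507 reads counted to genes. Genotypes are those in the names and column headers of the deposited RNA tables, which the sample labels reverse, and under the sample labels every direction below would be the opposite. All 1999 rows that could be read of the study's own per-library table equalled the libraries under the names used here, within a relative tolerance of 0.001. The knocked-out genes had few poly(A) reads. Normalized counts of H1c (H1f2) were 11.6 and 56.7 for WT against 18.7 and 7.37 for H1-TKO, those of H1d (H1f3) 3.88 and 41.4 against 1.10 and 0, and those of H1e (H1f4) 5.43 and 19.6 against 0 and 2.11. H1d and H1e were lower in both H1-TKO libraries than in either WT library, while H1c overlapped between the genotypes, and the WT libraries lay far apart for all of them. H1d was not called by limma (log2 fold change −3.31, adjusted p = 0.105) or by edgeR on recovered reads (−5.05, adjusted p = 0.0681), but was called by DESeq2 (−5.37, adjusted p = 0.0285). The study describes the RNA-seq libraries of a genotype as biologically independent, and the p-values rest on the spread between 2 libraries of each.

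Of the genes with an H1-TKO-only promoter peak, 578 were in the RNA tables. Of these, 83 were listed at 0 in every library, 207 had a mean under 10 normalized counts and 288 (49.8%) passed this filter and were tested. Several accessions belonged to 190 of the 578, and such genes were low more often, as given below. In limma's test with Benjamini-Hochberg adjustment over all accessions, 24 of the 288 were called higher in H1-TKO mESCs (8.33%), where the share over all 10802 genes tested was 9.96%. Lower were 30 (10.4%), where the share over all genes was 10.8%. Both shares lay near those of all genes, but with promoters of 500 bp 6 of 144 were higher (4.17%) and 15 lower (10.4%). For genes of shared promoter peaks the shares were 10.7% and 11.5% of 672, and for genes of WT-only promoter peaks 9.83% and 8.99% of 356. The median log2 fold change of the 288 was 0.07 against −0.03 over all genes, a difference of 0.10 that ran from −0.03 to 0.20 over the 4 pairs of single libraries. At 2-fold or more, 17 (5.90%) were called higher and 24 (8.33%) lower, where the shares over all genes were 5.46% and 5.98%. The counts depended on single libraries, as did those over all genes. Without WT replicate 1, 75 were called higher (26.0%, against 24.3% of all genes) and 48 lower (16.7% against 25.4%). Without WT replicate 2 the counts were 55 (19.1% against 21.7%) and 71 (24.7% against 23.4%). Without H1-TKO replicate 1 they were 6 (2.08% against 1.90%) and 18 (6.25% against 3.61%), and without H1-TKO replicate 2 they were 7 (2.43% against 1.83%) and 15 (5.21% against 3.50%).

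Levels were compared per kb of exon, for genes with 1 accession, because low values were more common among protein-coding genes with several accessions: 78.0% of 4850 had a mean under 10 and 32.2% were listed at 0, against 40.3% and 14.7% of 15329 with 1 accession. The median level of 388 such genes was 9.71 normalized counts per kb for WT and 10.4 for H1-TKO. The corresponding medians were 4.70 and 4.21 for 1032 genes of shared promoter peaks, 5.45 and 6.77 for 522 genes of WT-only promoter peaks, and 17.1 and 16.6 for 13420 protein-coding genes with no promoter peak in either list. Genes with a peak over 10 kb from a WT peak had medians of 15.95 and 16.5, and genes whose peaks all lay within 1 kb of one had 6.34 and 6.36. Genes whose peak window met the CpG island limits had 23.3 and 18.9, and the other genes 5.98 and 7.55. Of the tested genes with such a window, 8 were called higher and 17 lower (6.50% and 13.8%), and of the 165 without it 16 and 13 (9.70% and 7.88%), where the shares over all genes were 9.96% and 10.8%. The difference between these was not tested.

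Dusp15, a phosphatase gene, had the largest log2 fold change among the called rises at a pseudocount of 1, from normalized counts of 2.33 and 1.09 for WT against 16.5 and 27.4 for H1-TKO (3.08 ± 0.80 (SE), adjusted p = 0.0356 in limma's test). At a pseudocount of 5 its value was 1.98, below those of Adssl1, Atp12a, Serpine2, Cyp46a1 and Mtus2. Dusp15, Cyp46a1 and Slc35f4 passed the filter only through the H1-TKO libraries, in which they are high, and none of them was called without a filter. Atp12a, the non-gastric proton-potassium pump gene, had 28.7 and 3.27 against 125 and 66.4 (3.03 ± 0.88, adjusted p = 0.0491). Its peak was among the strongest, with a score of 161.76 at 403954 bp from a WT peak. The WT libraries of Atp12a lay far apart, and leaving out WT replicate 2 gave a log2 fold change of 1.63, leaving out WT replicate 1 one of 4.43. With all libraries, the Atp12a call was lost in edgeR, at a pseudocount of 0.5, without a filter and at a mean of at least 50. Adssl1, a muscle enzyme gene of AMP synthesis, had 59.7 and 22.9 against 257 and 273 (2.80 ± 0.44, adjusted p = 0.00844), with values of 2.13 and 3.47 when WT replicate 2 or 1 was left out. Its peak (score 105.89) lay 29580 bp from a WT peak, and no WT peak was listed in the gene. Cyp46a1, the cholesterol 24-hydroxylase gene, and Slc35f4 followed, with log2 fold changes of 2.73 and 2.68 from low levels in WT. These were 2.08 and 1.78 at a pseudocount of 5, and DESeq2 did not call Slc35f4. The value for Cyp46a1 was 2.07 if H1-TKO replicate 1 was left out, and 3.39 if H1-TKO replicate 2 was.

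Serpine2, which encodes a secreted inhibitor of serine proteases, had the smallest adjusted p among the genes that rose. Its normalized count was 272 in both WT libraries, against 1534 and 1409 for H1-TKO (log2 fold change 2.43 ± 0.15, adjusted p = 5.52e-04 in limma's test). Its H1-TKO-only peak scored 66.71 and lay upstream of the start, 659 bp from a WT peak of score 137.00, and the gene also had a shared promoter peak. The other genes of this group were Mtus2 (2.10), Kalrn (1.88), Map3k9 (1.70) and Tbc1d8 (1.69), of which Kalrn encodes a guanine nucleotide exchange factor and Map3k9 a mixed-lineage kinase. For Mtus2 the value was 1.503 if WT replicate 1 was left out, and 2.69 if WT replicate 2 was. Without H1-TKO replicate 1, Dusp15, Atp12a, Cyp46a1 and Slc35f4 were no longer called, and without H1-TKO replicate 2 Dusp15, Cyp46a1 and Slc35f4 were not.

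Zic2, a zinc-finger transcription factor of the early nervous system, fell most. Its normalized counts were 189 and 288 for WT against 13.2 and 13.7 for H1-TKO (log2 fold change −4.02 ± 0.37, adjusted p = 0.00199 in limma's test). The H1-TKO-only peak of Zic2 (chr14:122874719-122876066, 1348 bp, score 69.11) lay 24685 bp from a WT peak, in a window of 53 CpGs. Fbn1, the fibrillin-1 gene of microfibrils, had 238 and 107 against 18.7 and 15.8 (−3.14 ± 0.46, adjusted p = 0.00680). Its peak lay 150 bp from a WT peak, and the gene also had a shared promoter peak. Notum, which encodes an enzyme that inactivates Wnt ligands, had 159 and 716 against 55.1 and 31.6 (−2.99 ± 0.65, adjusted p = 0.0213). Leaving out WT replicate 2 gave a log2 fold change of −1.90 for Notum, leaving out WT replicate 1 one of −4.07. Ripply1, a repressor gene of somite formation on chromosome X, fell by 2.84 and Nrg1, the neuregulin-1 gene, by 2.70 on the log2 scale. Adgra2, Rnf39 and Fndc4 had log2 fold changes of −2.19, −1.98 and −1.97. That of Adgra2, a receptor gene of Wnt7 signalling, was −1.33 if WT replicate 1 was left out, and −3.06 if WT replicate 2 was. Adgra2 was not called without H1-TKO replicate 1, and Rnf39 was not called without either H1-TKO library.

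**Figure D2:**
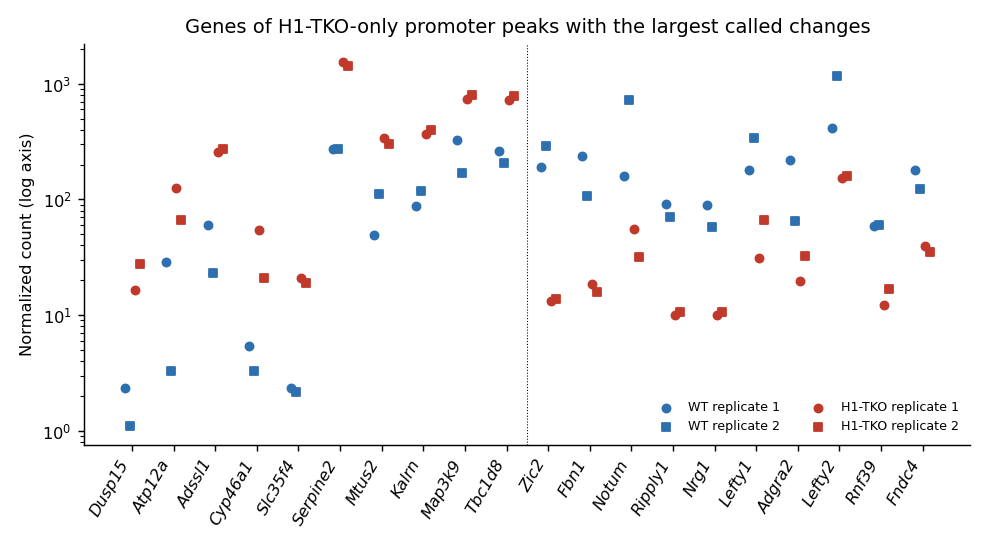
Normalized counts (y axis, log scale) in each of the 4 libraries for the 10 genes of H1-TKO-only promoter peaks with the largest called rise (left of the dotted line) and the 10 with the largest called fall (right). Circles are replicate 1 and squares replicate 2, WT in blue and H1-TKO in red. The 20 genes were taken from called genes without overlap between the genotypes, and the WT points of Atp12a and Notum lie far apart.

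Lefty1 and Lefty2, which encode inhibitors of Nodal signalling, are neighbours on chromosome 1 and both fell. Normalized counts of Lefty1 were 179 and 343 for WT against 30.9 and 66.4 for H1-TKO (log2 fold change −2.43 ± 0.46, adjusted p = 0.0137 in limma's test). Lefty2 had 414 and 1154 against 154 and 159 (−2.13 ± 0.43, adjusted p = 0.0160), with −1.395 if WT replicate 2 was left out, and −2.87 if WT replicate 1 was. Their H1-TKO-only peaks (chr1:182865107-182865741, score 84.72, and chr1:182823684-182824169, score 55.69) and the Tmem63a peak (chr1:182871751-182873994, score 193.60) lay within 50311 bp. This was 1 of 3 stretches in which such peaks of 3 genes lay no more than 50 kb apart. The WT list held a single peak beside them (chr1:182871057-182871727, score 100.65), 23 bp from the Tmem63a peak. Normalized counts of Tmem63a itself were 200.2 and 176 for WT against 128 and 147 for H1-TKO (−0.45 ± 0.24, adjusted p = 0.208).

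Falls among signalling genes and Polycomb genes can be set beside their lists. Of the 25 signalling genes 16 were tested, and 1 was called higher and 5 lower, where the whole list had 15 higher and 23 lower of 121 tested. Besides Lefty1, Lefty2 and Nrg1, these were Ptch1, the Hedgehog receptor gene (log2 fold change −0.99, adjusted p = 0.0165 in limma's test), Slit3 (−1.53, adjusted p = 0.0206) and, higher, Epha4 (1.05, adjusted p = 0.0283). They are named after their values were seen. Kdm2b, whose product recruits a variant Polycomb complex to CpG islands, had 498 and 411 normalized counts for WT against 108 and 156 for H1-TKO (−1.79 ± 0.25, adjusted p = 0.00594). It had 2 H1-TKO-only peaks, at an internal start, and 1 WT peak in the gene (score 59.33). Pcgf5 was not called (0.19 ± 0.28, adjusted p = 0.662), and Cbx8 was under the filter. The whole list of Polycomb subunit genes had 3 higher and 4 lower of 30 tested. Of the developmental transcription factors 7 of 20 were tested and 1, Zic2, was called, lower, where the whole list had 10 higher and 14 lower of 89 tested. Of the neuronal genes 6 of 26 were tested and 1, Nlgn2, was called lower (−0.64 ± 0.18, adjusted p = 0.0484), where the whole list had 11 higher and 5 lower of 90. The Nlgn2 call was lost without either H1-TKO library. It was also lost with all libraries in edgeR, in DESeq2, under quantile normalization and without a filter. Of the adhesion and matrix genes 7 of 20 were tested and 1, Fbn1, was called, lower, where the whole list had 19 higher and 18 lower of 118. The list of numbered Zfp genes gave 1 call in 4 tested, Zfp385a (0.66, adjusted p = 0.0493), where the whole list had 7 higher and 31 lower of 283. None of the 4 germline or 3 ribosome, proteasome and respiratory chain genes tested was called, where the whole lists had 8 higher and 1 lower of 73, and 30 higher and 62 lower of 320. The germline list leaves out some meiosis genes with an H1-TKO-only peak, named here after their values were seen: Meioc was called higher (0.97 ± 0.17, adjusted p = 0.0119 in limma's test), and Mei4 and Majin were not called.

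None of the 8 genes with the highest peak scores was called, and 5 of them were tested. Normalized counts of Celsr1 were 364 and 196 for WT against 295 and 286 for H1-TKO (log2 fold change 0.12 ± 0.30, adjusted p = 0.793 in limma's test), and Mex3d 471 and 482 against 360 and 394 (−0.34 ± 0.17, adjusted p = 0.182). Dlgap4 had 44.2 and 13.1 against 39.7 and 31.6, for the highest of its several accessions, and Hhat 19.4 and 13.1 against 15.4 and 14.7. Speg, Efemp2 and Ttll8 were under the filter, Speg and Efemp2 by the highest of their several accessions. Among the 36 tested genes with a peak score of at least 100, 5 were called higher and 5 lower (13.9% each, where the shares over all genes were 9.96% and 10.8%).

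Chromosome 1 as a whole was higher in the H1-TKO RNA libraries. Over all 591 of its genes tested, 30.3% were called higher and 4.06% lower, with a median log2 fold change of 0.50. Of its 26 tested genes with an H1-TKO-only promoter peak, 5 were higher, Serpine2 and Tbc1d8 among them, and 3 lower, Lefty1 and Lefty2 among them, with a median of 0.30. Without chromosomes 1, 8, 11 and Y, 18 of 226 were called higher (7.96%) and 21 lower (9.29%), where the share over the remaining 8207 genes was 9.74% in each direction. Over all 10802 genes the shares were 9.96% higher and 10.8% lower. Of the falls named above, Nrg1 and Adgra2 lie on chromosome 8 and Notum on chromosome 11. A shift of chromosomes 8, 11 or Y as a whole was not tested.

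Some markers of other cell types were called between the genotypes, 1 each of the neural and trophectoderm lists lower and fibroblast markers in both directions. No endoderm or mesoderm marker was called. The WT libraries themselves lay far apart for Nes (2920 and 849) and Krt8 (1438 and 314). The 8 mESC markers summed to normalized counts of 23627 and 33046 for WT against 40125 and 40839 for H1-TKO, with 6 above the filter. Sox2, Klf4 and Dppa5a were called higher and Tdgf1 lower, while Pou5f1, with 2642 and 5110 against 2586 and 2908, and Zfp42 were not called. Nanog, which mESCs use, was listed at 0 in every library and Esrrb had at most 3.27. A listing at 0, here and below, need not mean absent RNA. Of protein-coding genes with several accessions 32.2% were listed at 0, against 14.7% of those with 1. Neural markers (Pax6, Nes, Sox1) summed to 2934 and 898 for WT against 213 and 245 for H1-TKO, nearly all of it Nes, and 1 was called lower. Trophectoderm markers summed to 1464 and 314 against 78.2 and 113, nearly all of it Krt8, and 1 was called lower. Fibroblast markers summed to 354 and 299 against 510 and 576, with 1 called higher and 1 lower and Dcn at 0 in all libraries. These moved in opposite directions, Thy1 from 109 and 125 to 450 and 511 normalized counts and Col1a1 from 196 and 148 to 34.2 and 53.7. Endoderm markers summed to 14.3 to 37.2 and mesoderm markers to 12.4 to 24.2 over the libraries, with Sox17, Foxa2 and Eomes at 0. Fewer cells of a type and less RNA per cell cannot be told apart in these bulk libraries. The part of other cell types in the falls of Zic2, Fbn1, Notum and the Lefty genes was not tested.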

How the data were processed

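H3K27me3 ChIP-seq of WT and H1-TKO mESCs (1 peak list each) and poly(A) RNA-seq (2 libraries each) were used. Other samples, among them replicate 2 of both ChIP-seq genotypes, were not analysed here.

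For ChIP-seq, the authors used Bowtie2 for alignment to mm9, removed duplicates with SAMtools and called peaks with MACS. The deposited score is minus 10 multiplied by log10 of the MACS p-value. Whether the fly spike-in entered peak calling is not given in the sources used here. For RNA-seq, the authors mapped reads with Subread, counted them per RefSeq accession with featureCounts and divided the counts by DESeq2 size factors. The deposited signal is the count after this division. Within 0.01, 100% of values equalled whole multiples of 1 read, so reads were recovered. The genotype of each RNA library was taken from the name of its table.

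Peaks were placed by their centre in GENCODE M1 (NCBIM37), with all protein-coding transcription starts. Accessions were named through a RefSeq table (33646 of 34010), and each gene was counted by its accession with the highest mean. Accessions with a mean of at least 10 over the 4 libraries were tested with limma 3.58.1 (R 4.3.3; log2(normalized count + 1); eBayes with trend) at a Benjamini-Hochberg adjusted p under 0.05. This scale makes fold changes of low genes too small. edgeR 4.0.16 and DESeq2 1.42.0 on recovered reads were alternatives, as were other pseudocounts, filters, scaling, promoter widths and score limits. The limma step was tested on simulated data. Python 3.11.15 and pysam read the sequences.

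Named genes follow a rule: the 8 highest scores, the 4 peaks farthest from a WT peak with a score of at least 60, the 10 largest called changes in each direction without overlap, up to 3 genes of each list by score, peaks at the limits of the rule, the genes with the most peaks and the knocked-out genes. A few genes that the rule names are not reported here. The peaks, gene lists and tests were chosen with earlier results of these data known.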

Additional observations from a re-analysis of the deposited data

How the results depend on the processing

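The number of H1-TKO-only promoter peaks depended on the limits. It was 294 with promoters of 500 bp, 968 with 2 kb, 371 at a score of at least 60, 72 at a score of at least 100, and 401 with no WT peak within 1 kb. At a score of at least 100 the share on chromosome 1 was 11.1% and the share with no WT peak within 10 kb 58.3%. The latter was 84.3% among peaks with no WT peak within 1 kb, as that limit implies. The CpG island share was 38.4% in windows of 1000 bases.

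For RNA, 24 genes were called higher and 30 lower. Without a filter on low values, the counts were 13 and 19 (2.63% and 3.84% of those tested, against 3.29% and 3.66% of all genes). The replicate block gave 47 and 49 (16.3% and 17.0%, against 13.8% and 16.2%), but replicate numbers do not pair the libraries here (correlation of deviations 0.011 for 2 pairs). With 1 library left out, calls higher ran from 6 to 75 and calls lower from 15 to 71, where the lone library of a genotype is assumed to vary like the others. Promoters of 500 bp gave 6 higher and 15 lower of 144 tested, and 2 kb gave 39 higher and 45 lower of 457 (8.53% and 9.85%). A score of at least 60 gave 14 and 21 of 182 (7.69% and 11.5%), and no WT peak within 1 kb gave 15 and 23 of 191 (7.85% and 12%). The shares over all genes were 9.96% higher and 10.8% lower with these limits. edgeR called 20 and 27 (6.94% and 9.38%, against 9.62% and 10.1% of all genes), and DESeq2 27 and 36 (9.38% and 12.5%, against 10.3% and 11.8%). The difference in median log2 fold change ran from −0.01 to 0.21 with 1 library left out.

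Of 22 called genes named by the rule, none changed direction. DESeq2 lost Slc35f4 and Nlgn2, edgeR Atp12a and Nlgn2, quantile normalization Nlgn2 and a pseudocount of 0.5 Atp12a. Without a filter 8 were lost, Dusp15, Atp12a, Cyp46a1, Slc35f4, Notum, Adgra2, Rnf39 and Nlgn2. With a mean of at least 50, 16 of the 22 were tested and Atp12a was lost. With 1 library left out, uncalled genes changed sign within a range of −0.32 to 0.56 for Celsr1, −0.31 to 1.37 for Dlgap4, −0.34 to 0.19 for Hhat, −0.62 to 0.38 for Syce1, −0.027 to 1.69 for Psmb9, −0.12 to 0.49 for Pcgf5 and −2.17 to 0.024 for H1f2. The causes were not tested. The lists hold no reads, so a peak missing from WT cannot be told from one just under its score limit.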
